A study of Mus musculus with 18 samples.

Results

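The calponins and transgelins are 5 small actin-binding protein genes, Cnn1, Cnn2, Cnn3, Tagln and Tagln2. They were picked by gene symbol, with earlier results of these data known, from the 18909 genes of the table. All 5 are in it. The RNA of 2 mouse tumour lines in culture was sequenced in 18 libraries, from B16F10 melanoma cells and E0771 mammary tumour cells, both labelled C57BL6. In each line, cells carried a pRetrox retroviral vector as control, or the vector with MRTFA or with MRTFB, and every group, controls included, received doxycycline at 500 ng/mL for 48 h to switch on the transgene. This makes 6 groups of 3 replicates. The labels do not say whether the cells were pools or clones, which form of MRTFA and MRTFB was expressed, or whether replicates were separate cultures. The p-values therefore measure the spread between these libraries, which may be technical.

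MRTFA and MRTFB (Mkl1 and Mkl2 in the older symbols of the table) are coactivators of serum response factor, Srf. Monomeric actin holds them in the cytoplasm, and when actin polymerises they enter the nucleus and act with Srf at CArG boxes near genes of the actin cytoskeleton and of smooth muscle. Calponins carry a calponin-homology domain followed by short calponin-like repeats. Cnn1 is the smooth muscle form, which binds actin and inhibits the myosin ATPase. Cnn2 is found in smooth muscle and in many other cells that bear mechanical load, and Cnn3 is a widely expressed acidic form. Transgelins are shorter relatives with the same domain. Tagln is an early smooth muscle marker that binds and bundles actin filaments, and Tagln2 is its broadly expressed relative, known from epithelial and blood cells.

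All 5 genes are protein coding in GENCODE M21 (GRCm38). Cnn1 lies on chromosome 9 at 22099216 to 22109630 on the plus strand, Cnn2 on chromosome 10 at 79988584 to 79996062 (plus), and Cnn3 on chromosome 3 at 121426497 to 121458207 (plus). Tagln lies on chromosome 9 at 45929619 to 45936058 on the minus strand, and Tagln2 on chromosome 1 at 172500047 to 172507380 (plus). The longest coding transcript has 7 exons in each calponin and 5 in each transgelin, with coding sequences of 891, 915 and 990 bases for Cnn1, Cnn2 and Cnn3 and of 603 and 597 bases for Tagln and Tagln2. Between any 2 members, 67.7 to 72.6% of aligned coding bases were identical. No stretch of 50 bases was shared between the transcripts of 2 members, so reads of that length have no identical place in another member.

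Stretches of 3 members also occur in other annotated genes. Of the 50-base stretches of Tagln, 58.3% also occur in the antisense gene Gm48529, which overlaps Tagln over 3627 bases, or in Pcsk7, which overlaps its end on the opposite strand by 108 bases. No source used here says whether the counting used strand, so reads of Tagln and of these partners may not have been told apart. Pcsk7 itself had group means of 647 to 1119 scaled reads (a scaled read is a read divided by the size factor of its library). Of the stretches of Cnn3, 24.0% occur in predicted genes, among which Gm42928 had group means of 2.61 to 43.4. For Tagln2 the share was 0.565%. Next to Cnn2, Abca7 starts 432 bases away on the same strand, with group means of 528 to 1066.

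RefSeq (GRCm38.p6) gave windows of 250 bases upstream of the start for 4 of the 5 members. Tagln had no window, so its promoter was not searched. A CArG box, the site at which Srf binds, was searched on both strands and was found once, in Cnn2, where it reads CCTTATAAGG and begins 56 bases before the RefSeq start. Such a box is in 1.47% of the 32851 windows of this length. Allowing 1 mismatch, which takes in the exact box, the 4 windows still held a match only in Cnn2, against 18.6% of all windows. The letters GGAATG, the usual site of TEAD factors, occurred in Tagln2, beginning 118 and 80 bases before the start, and are in 12.6% of windows. The letters TATAAA were in none of the 4 and are in 12.4% of windows. A match describes these letters only, and no match says nothing of sites farther away. The windows of Cnn2, which holds the box, and of Cnn1, the member with the widest range of levels, are printed for comparison, cut off before the first base of the annotated gene, with the CArG box in capitals. They span chr10:79988350-79988583 and chr9:22099003-22099215, both on the plus strand.
Cnn2: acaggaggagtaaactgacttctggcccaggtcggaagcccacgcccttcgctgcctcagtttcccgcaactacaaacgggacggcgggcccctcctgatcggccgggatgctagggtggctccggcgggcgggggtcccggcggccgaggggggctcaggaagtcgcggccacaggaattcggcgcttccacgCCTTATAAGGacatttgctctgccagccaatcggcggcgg
Cnn1: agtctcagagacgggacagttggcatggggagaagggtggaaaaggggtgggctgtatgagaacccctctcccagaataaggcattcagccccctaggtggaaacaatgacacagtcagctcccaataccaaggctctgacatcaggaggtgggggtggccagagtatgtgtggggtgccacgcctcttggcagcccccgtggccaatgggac

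Libraries held 27607055 to 37116655 reads. Mkl1 in E0771 was at 12469, 16557 and 12160 scaled reads with MRTFA against 1124, 1514 and 1408 in control (log2 difference 3.34, SE 0.19, adjusted p = 4.68e-07, limma). In B16F10 the libraries labelled MRTFA held 1398, 902 and 1314 against 1109, 987 and 950, which overlap (0.22, SE 0.18, adjusted p = 0.856, limma), so the B16F10 groups are named here by their labels. Mkl2 with MRTFB was 0.68 higher on the log2 scale in E0771 (SE 0.10, adjusted p = 0.0306, limma) and 0.35 higher in B16F10 (SE 0.14, adjusted p = 0.503, limma). The 2 transgenes and the 2 lines thus differ in how far the matching gene moved in the table, and a weaker factor and a lower level of it cannot be told apart here. Of 8 melanocyte markers all were present in B16F10, summing to 574652 to 775795 scaled reads, against 374 to 641 in E0771. Of 8 epithelial markers, Krt18, Cldn3 and Cldn4 are not analysed here; in E0771 controls Krt8 averaged 6720 scaled reads, and Epcam and Cdh1 only 42.1 and 4.57. Libraries numbered 3 stood apart in every group by genes at least 2-fold above both other libraries. These were 114 to 284, against 2 to 39 for numbers 1 and 2. Genes at least 2-fold below both others were 19 to 111 for number 3 and 7 to 68 for numbers 1 and 2, which overlap. Where leaving the numbers 3 out turned a member's call or moved a called value by over 1.5 times, that value is given too. Cnn1 in B16F10 was not tested without them, since only 2 of the libraries left then reach 10 scaled reads and the filter asks for 3.

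In the control cells Cnn3, Tagln2 and Cnn2 were the highest members in both lines, in a different order. Per kb of exon, Cnn3 was highest in B16F10 controls at 4037 ± 236 scaled reads per kb (SD, n = 3), followed by Tagln2 at 2498 ± 657 and Cnn2 at 1433 ± 644, with overlapping ranges for Tagln2 and Cnn2 and separate ones for Cnn3 and Tagln2. In E0771 controls Tagln2 led at 12321 ± 926 per kb, ahead of Cnn3 at 3081 ± 134 and Cnn2 at 2231 ± 409, with separate ranges. Both smooth muscle forms were low: Tagln averaged 61.2 per kb in B16F10 and 192 in E0771, and Cnn1 0.465 and 8.60. Between the controls, 4 of 5 members passed the test, against 70.2% of all genes tested. Tagln2 was higher in E0771 by 2.33 on the log2 scale (SE 0.24, adjusted p = 1.42e-07), Cnn1 by 3.81 (SE 0.73, adjusted p = 0.000178) and Tagln by 2.09 (SE 0.70, adjusted p = 0.0137), while Cnn3 fell by 0.39 (SE 0.07, adjusted p = 0.000158), all by limma over 18 libraries. Cnn2 did not pass (0.71, SE 0.35, adjusted p = 0.0783), but did without B16F10 control replicate 3 (1.06, adjusted p = 0.0145, limma) and with the numbers 3 left out of every group (0.92, adjusted p = 0.00044, limma). With edgeR and DESeq2, 3 members passed (backgrounds 69.8% and 69.7%), as Tagln had adjusted p-values of 0.0681 and 0.0611. The Tagln call was also lost without B16F10 control replicate 1 (adjusted p = 0.0587) or replicate 2 (0.0738), and with the numbers 1 or 2 left out of every group (0.205 and 0.145). Without B16F10 control replicate 3 alone the differences of Tagln and Cnn1 were 2.89 and 4.56, and with the numbers 3 left out of every group 3.12 and 4.57.

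**Figure D1:**
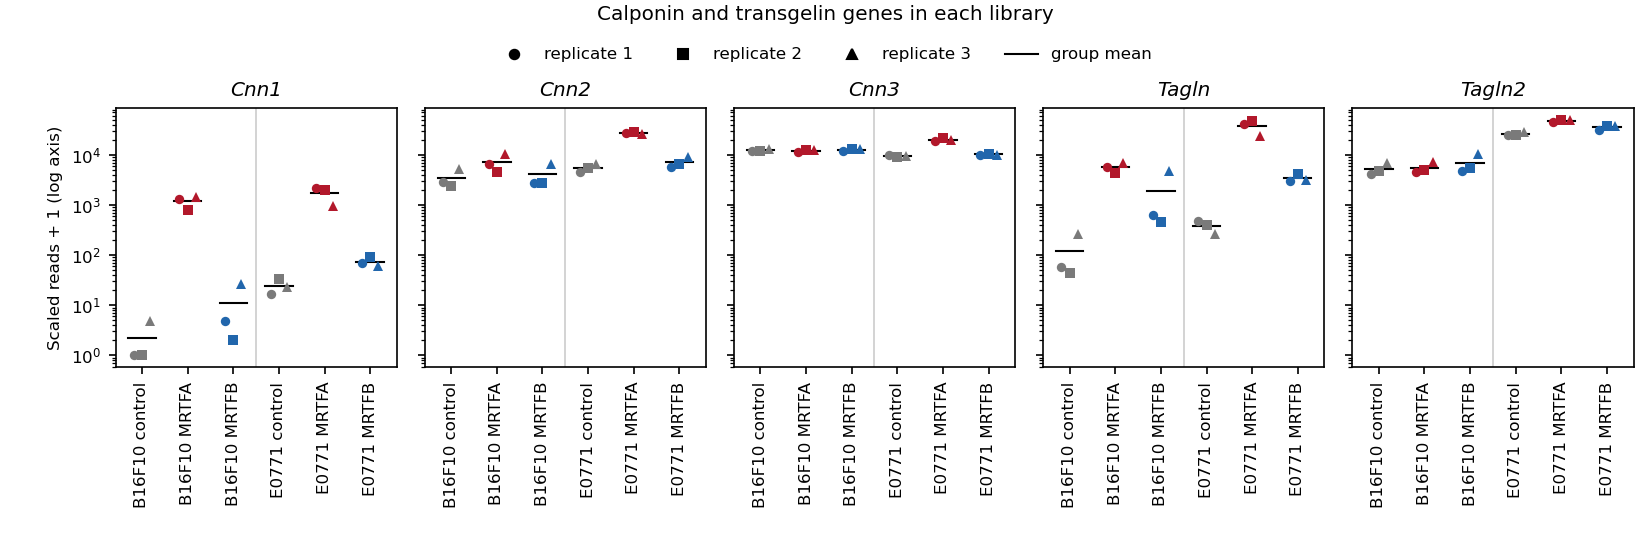
Scaled reads plus 1 of each member in every library (log axis), by group, with marker shape for the replicate number and a bar at the group mean. Cnn1 and Tagln span the widest range, Cnn3 stays between 9002 and 21347 scaled reads in all libraries, and Tagln2 separates the lines in every group.

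With MRTFA, 2 of 5 members rose in B16F10, against 1.34% of genes tested (1.55% passed in either direction), and 5 of 5 rose in E0771, against 20.3% (38.4%). Of the 2, Cnn1 met the filter in B16F10 only through its MRTFA libraries. The groups did not overlap for the same counts of members, 2 of 5 in B16F10 (12.9% of genes tested) and 5 of 5 in E0771 (50.1%). With MRTFB, 0 of 5 members passed in B16F10 (background 0.126%) and 1 of 5 in E0771 (0.144%). At an unadjusted p under 0.05 these counts were 1 and 3, against 8.87% and 2.54% of genes tested. Without overlap between groups there were 1 of 5 in B16F10 (13.8% of genes tested) and 4 of 5 in E0771 (5.6%). The MRTFA and MRTFB comparisons of a line share its 3 control libraries. The tool changed the MRTFB counts: edgeR called 0 and 1 (backgrounds 0.118% and 0.0986%), and DESeq2 called 1 (Tagln) in B16F10 and 3 (Cnn1, Tagln and Tagln2) in E0771, with backgrounds of 1.33% and 0.387%. With replicate number as a block, limma called 2 (Cnn1 and Tagln) in B16F10 and 1 in E0771 with MRTFB. The backgrounds were 4.46% and 0.25%. All tests were fitted over the whole table and adjusted over it. Measured in bulk, a level does not tell fewer cells holding an RNA from less of it per cell.

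**Figure D2:**
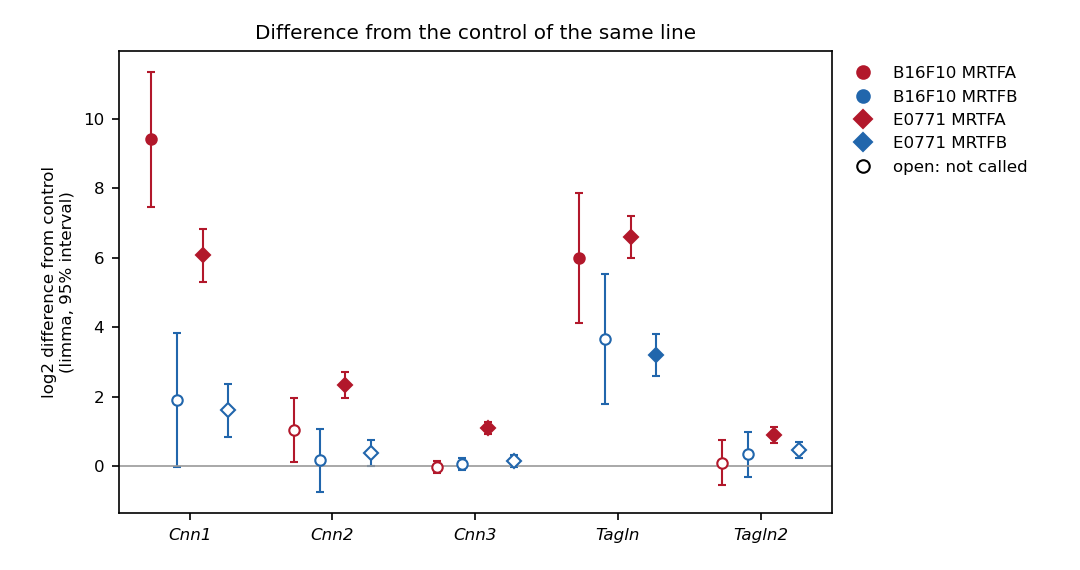
Difference of each member from the control of its line on the log2 scale (limma, points) with the 95% interval (bars), filled where the adjusted p was under 0.05. In E0771 all 5 MRTFA points are filled, from 0.90 for Tagln2 to 6.61 for Tagln, and in B16F10 those of Cnn1 at 9.41 and Tagln at 6.0.

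Cnn1, the smooth muscle calponin, was almost absent from B16F10 controls, which held 0, 0 and 3.82 scaled reads in replicates 1, 2 and 3, or 4 reads in all. With MRTFA the libraries held 1325, 799 and 1437. Every MRTFA library was thus far above every control. The ratio of means was 933, and the ratio of reads has a 95% interval of 363 to 3416 for counting error only. On the log2 scale the difference was 9.41 (SE 0.87, adjusted p = 0.000408, limma), the 5th largest of 13517 genes tested, and its size depended on the constant added before the logarithm, being 10.1 with 0.5 and 7.58 with 5. Without B16F10 control replicate 3, the only control with reads, it was 10.2. The call was lost with the numbers 1 or 2 left out of every group (adjusted p = 0.288 and 0.0588), which leaves 2 libraries a group. In B16F10 Cnn1 met the filter of 10 scaled reads in 3 libraries only through its MRTFA libraries. Its call and rank there thus describe a gene that was tested because it was high with MRTFA. In E0771, where controls held 16.1, 32 and 22.4, MRTFA libraries held 2189, 1981 and 932. Again the groups were far apart, with a ratio of means of 72.3 and a log2 difference of 6.07 (SE 0.34, adjusted p = 4.75e-07, limma).

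With MRTFB, Cnn1 in B16F10 was at 3.81, 1.04 and 25.1 scaled reads, which overlaps the controls. The log2 difference was 1.91 (SE 0.87, adjusted p = 0.567, limma). With replicate number as a block the adjusted p was 0.0491, at a background of 4.46% of genes called, from libraries of 4, 1 and 25 reads against 0, 0 and 4. In E0771 MRTFB libraries held 67.5, 89.4 and 59.6, all above the controls, at 3.07 times their mean. This difference of 1.61 (SE 0.34) had an adjusted p of 0.259 with limma and of 0.00214 with DESeq2. Across the 6 groups the order of means ran from E0771 MRTFA and B16F10 MRTFA, whose ranges overlap, through E0771 MRTFB, separate from its neighbours, to E0771 control, B16F10 MRTFB and B16F10 control, whose neighbouring ranges overlap.

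Tagln, the smooth muscle transgelin, was at 55.8, 43.8 and 265 scaled reads in B16F10 controls and at 5796, 4425 and 6982 with MRTFA. Replicate 3 was the highest library in both groups, and the groups were separate. The ratio of means was 47.1 and the log2 difference 6.0 (SE 0.84, adjusted p = 0.00429, limma). Without B16F10 MRTFA replicate 1 the adjusted p was 0.0616, and with the numbers 1 or 2 left out of every group it was 0.604 and 0.269, at differences of 5.98, 5.67 and 5.69. With the numbers 3 left out of every group the difference was 6.65 (adjusted p = 1.05e-06, limma), and without B16F10 control replicate 3 alone it was 6.8. In E0771 controls held 484, 396 and 268, and MRTFA libraries 41772, 48323 and 23674. Here replicate 3 was the lowest library in both groups. The ratio of means was 99.1 and the log2 difference 6.61 (SE 0.27, adjusted p = 5.73e-08, limma).

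Tagln was also the member that differed most with MRTFB. In B16F10, MRTFB libraries held 630, 458 and 4709 scaled reads, all above the controls, with replicate 3 again highest. The ratio of means was 15.9 and the log2 difference 3.66 (SE 0.84), the 7th largest of 13517, with an adjusted p of 0.176 by limma and 0.0168 by DESeq2. Within each replicate number the log2 difference was 3.47, 3.36 and 4.14, and with that number as a block the adjusted p was 0.0022. With libraries numbered 3 left out of every group the difference was 3.41 (adjusted p = 0.000138), and without B16F10 control replicate 3 alone it was 4.46 (adjusted p = 0.0364), both by limma. In E0771, MRTFB libraries held 2996, 4127 and 3194, against at most 484 in control. Tagln rose by 3.19 on the log2 scale (SE 0.27, adjusted p = 0.00116, limma), the 3rd largest of 13189 differences. The call was lost in a fit of all 18 libraries (adjusted p = 0.143) and with the numbers 2 left out of every group (0.129), at differences of 3.19 and 3.10. In order of means, E0771 MRTFA and B16F10 MRTFA were separate from each other and from E0771 MRTFB, whose range overlapped that of B16F10 MRTFB, which in turn overlapped E0771 control, and B16F10 control was lowest.

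**Figure D3:**
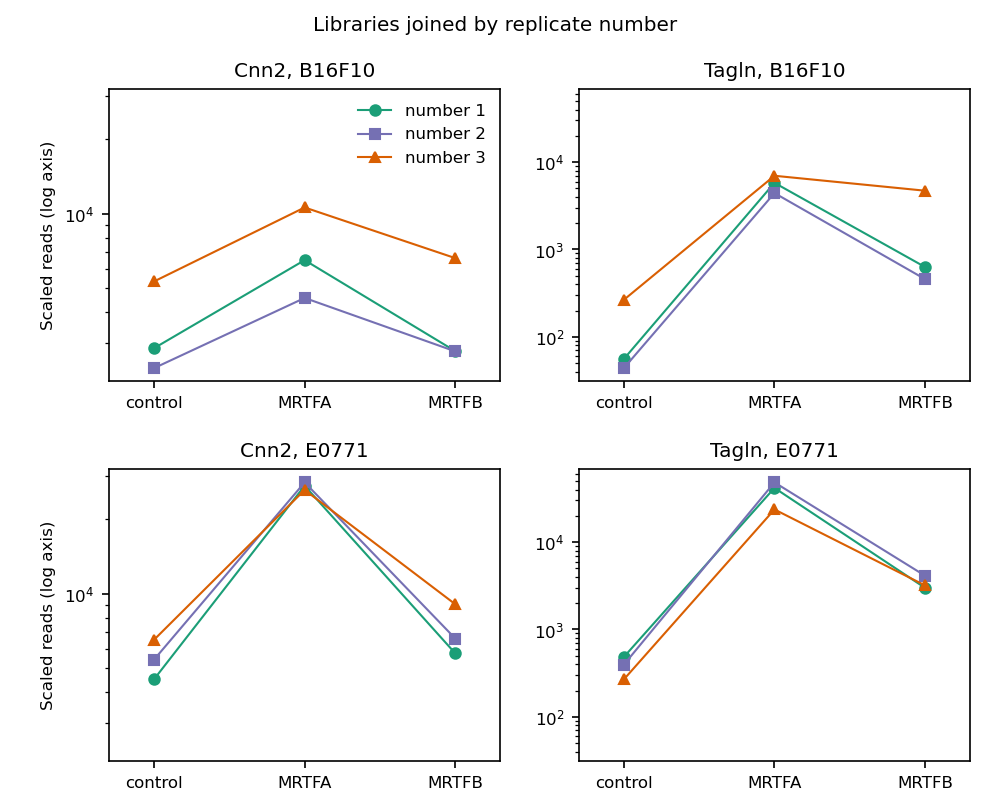
Scaled reads (log axis) of Cnn2 and Tagln in control, MRTFA and MRTFB libraries, with libraries of the same replicate number joined. In B16F10 number 3 is the highest in every group for both genes, and the lines for Cnn2 run side by side with differences of 1.18, 0.94 and 0.99 from control to MRTFA.

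Cnn2, the calponin of many mechanically loaded cells, was at 2864, 2379 and 5331 scaled reads in B16F10 controls and at 6499, 4571 and 10613 with MRTFA. Replicate 3 was the highest in each group, and the control replicate 3 lay above MRTFA replicate 2, so the groups overlap. The log2 difference of 1.04 (SE 0.41) did not pass (adjusted p = 0.431, limma). Within the replicate numbers it was 1.18, 0.94 and 0.99, and with the number as a block the adjusted p was 7.24e-05, at a background of 6.33%. With libraries numbered 3 left out of every group it was 1.06 (adjusted p = 0.0129, limma). In E0771, controls held 4517, 5424 and 6524, and MRTFA libraries 27348, 28224 and 26310. The groups were widely separate, at a ratio of means of 4.97, and Cnn2 rose by 2.33 on the log2 scale (SE 0.17, adjusted p = 2.43e-06, limma). MRTFB libraries overlapped the controls in both lines, with 2787, 2781 and 6624 in B16F10 and 5749, 6599 and 9082 in E0771. The log2 differences were 0.17 (95% interval -0.75 to 1.08) and 0.37 (-0.0012 to 0.74), with adjusted p-values of 0.969 and 1 (limma). By group means, E0771 MRTFA stood apart at the top, and every pair of neighbours among the other 5 groups overlapped.

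Some markers of other cells moved with the replicate numbers. The summed level of 5 of 6 fibroblast markers (Pdgfra, Dcn, Col1a1, Col1a2 and Thy1, without Lum, which is not analysed here) was 1622 to 2835 scaled reads in B16F10 libraries numbered 3 and 535 to 736 in the others. In E0771 it was 938 to 1838 in libraries numbered 3 and 2203 to 6707 in the others. Dcn and Thy1 were at 0 in E0771 controls and Thy1 in B16F10 MRTFB. Tagln followed the same direction in the controls and MRTFA libraries of both lines, and the part of the markers in the result was not tested. Other markers moved with MRTFA. The 6 markers of mature smooth muscle (Myh11, Myocd, Des, Smtn, Lmod1 and Kcnmb1) summed to 1980 to 2296 scaled reads in B16F10 controls and 3904 to 7082 with MRTFA, and to 3068 to 4557 and 19886 to 23604 in E0771. Most of the B16F10 control sum was Smtn, which averaged 1985 in controls and 2081 with MRTFA. Des stayed level there too, at 57.03 and 58.92. The B16F10 rise lay in Myh11 (1.93 to 2136), Lmod1 (99.05 to 1265) and Kcnmb1 (0.954 to 379). In E0771 Smtn and Des were also higher, at 3878 and 67.04 in controls and 10389 and 239.3 with MRTFA. Myocd, the coactivator that defines smooth muscle, averaged 0.643 and 2.66 in B16F10. Myocd was at 0 in E0771 controls and averaged 2.91 with MRTFA there. The epithelial sum in E0771 was 5820 to 7901 in controls and 14987 to 17027 with MRTFA. Most of it was Krt8, at means of 6720 and 15549. Krt7, Krt19 and Cdh1 averaged 87.5, 0.311 and 4.57 in controls and 330, 5.88 and 6.96 with MRTFA. Epcam was lower, at 42.1 and 33.5. Of 6 immune markers 5 are not analysed here. The part of these markers in the changes of the members was not tested.

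Cnn3, the acidic calponin, was the steadiest member in B16F10. Controls held 11852, 11845 and 13088 scaled reads, MRTFA libraries 11134, 12227 and 12592, and MRTFB libraries 12070, 12873 and 13242. The 3 groups overlap. The log2 differences were -0.03 (95% interval -0.21 to 0.14, adjusted p = 0.983) with MRTFA and 0.05 (-0.12 to 0.23, adjusted p = 0.929) with MRTFB, by limma. Both intervals lie below the difference with MRTFA in E0771. There, controls held 9798, 9002 and 9267 and MRTFA libraries 18536, 21347 and 19960. Cnn3 rose by 1.09 (SE 0.08, adjusted p = 2.46e-06, limma), a ratio of means of 2.13. MRTFB libraries held 10137, 10619 and 10003, just above every control, with a log2 difference of 0.13 (SE 0.08, adjusted p = 1, limma). In order of means, E0771 MRTFA came first, then the 3 overlapping B16F10 groups, then E0771 MRTFB and E0771 control, each separate from the next.

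Tagln2, the broadly expressed transgelin, was at 4068, 4813 and 6720 scaled reads in B16F10 controls, at 4594, 4923 and 7118 with MRTFA and at 4726, 5472 and 10368 with MRTFB. Replicate 3 was highest in each group and the groups overlap. The log2 differences were 0.10 (95% interval -0.55 to 0.74, adjusted p = 0.983) and 0.34 (-0.30 to 0.99, adjusted p = 0.843), by limma. In E0771 controls held 24807, 24290 and 27859, MRTFA libraries 44167, 49943 and 49508, and MRTFB libraries 31308, 37998 and 37561. These 3 groups are separate, in the order control, MRTFB, MRTFA. With MRTFA, Tagln2 rose by 0.90 (SE 0.10, adjusted p = 7.66e-05, limma). With MRTFB the difference was 0.47 (SE 0.10), with an adjusted p of 0.307 by limma and 0.00604 by DESeq2. Every E0771 library was above every B16F10 library.

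Within the transgelin family the make-up of reads per kb shifted toward Tagln with MRTFA, though Tagln2 kept a mean of 55.5% in E0771. Tagln was 2.11% ± 1.63 of the family's reads per kb in B16F10 controls (SD, n = 3) and 52% ± 4.37 with MRTFA, and in E0771 1.56% ± 0.513 and 44.5% ± 9.63. With MRTFB its share was 17.5% ± 12.9 in B16F10, where libraries 1, 2 and 3 held 12.2, 8.05 and 32.2%, and 9.17% ± 1.02 in E0771. In each of these comparisons the groups were separate, with a 2-sided exact permutation p of 0.1, the smallest that 3 against 3 allows. In the calponin family the share of Cnn1 was 0.00718% ± 0.0124 in B16F10 controls, 5.90% ± 1.2 with MRTFA and 0.0547% ± 0.0657 with MRTFB. In E0771 it was 0.162% ± 0.0572, 3.38% ± 1.30 and 0.423% ± 0.108. The exact permutation p was 0.1 here too, except for MRTFB in B16F10 (0.2). Cnn3 held the largest share of calponin reads per kb in both controls, 74.6% ± 7.13 in B16F10 and 58.1% ± 5.17 in E0771, and Cnn2 held the largest with MRTFA in E0771, 60.7% ± 1.01.

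**Figure D4:**
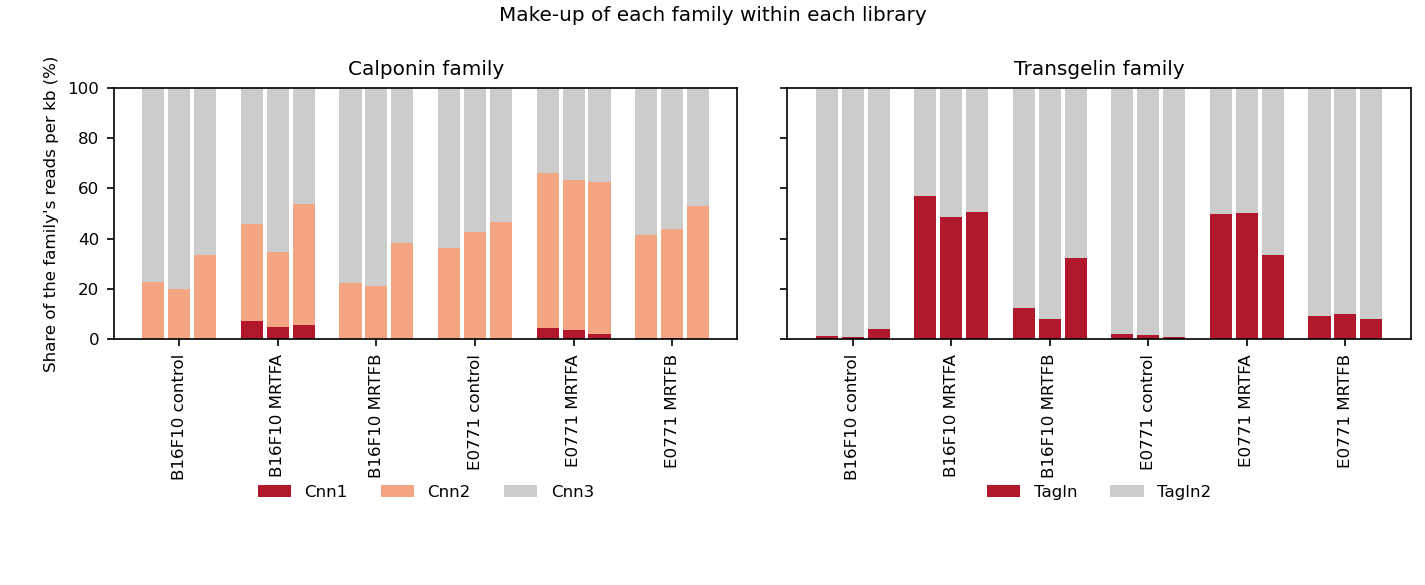
Share of each family's scaled reads per kb of exon (percent) that each gene held, with 1 bar for each library and replicates 1 to 3 from left to right in each group. Tagln takes 33.4 to 56.9% of the transgelin reads per kb in the 6 MRTFA libraries and at most 3.97% in the 6 controls.

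MRTFB was also set directly against MRTFA, using the libraries already described. In E0771 all 5 members were lower with MRTFB, against 19.1% of genes tested (33.6% passed in either direction), and in all 5 the groups did not overlap (47.1% of genes tested). Cnn1 fell by 4.47 on the log2 scale (SE 0.34), Tagln fell by 3.41 (SE 0.27), Cnn2 fell by 1.96 (SE 0.17) and Cnn3 fell by 0.96 (SE 0.08), with adjusted p-values of 4.44e-06 to 9.40e-06 (limma). Tagln2 fell by 0.43 (SE 0.10, adjusted p = 0.00974, limma), a call that was lost in a fit of all 18 libraries (0.185) and with the numbers 2 left out (0.121). In B16F10, 1 of 5 members fell, against 1.08% of genes (1.09% in either direction), and the same count did not overlap (7.76%): Cnn1 fell by 7.50 (SE 0.87, adjusted p = 0.00177, limma). Here too Cnn1 met the filter only through its MRTFA libraries. Without B16F10 MRTFA replicate 1 its adjusted p was 0.0585, and with the numbers 1 or 2 left out of every group 0.847 and 0.187. Without B16F10 MRTFB replicate 2 or 3 its difference was -6.68 or -8.52. Tagln differed by -2.35 (SE 0.84, adjusted p = 0.696, limma), and its differences within replicate numbers were -3.20, -3.27 and -0.57. With the number as a block its adjusted p was 0.00906 and that of Cnn2 (-0.87, SE 0.41) was 0.000333, against 1 without it, at a background of 2.66%. Without B16F10 MRTFB replicate 3, the difference of Tagln was -3.39 (adjusted p = 0.0201, limma). With libraries numbered 3 left out of every group, Tagln was at -3.23 (adjusted p = 0.000186) and Cnn2 at -0.97 (adjusted p = 0.0343).

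The difference between lines in the MRTFA effect was tested directly, as E0771 minus B16F10, over all 18 libraries. It passed for 2 of 5 members, against 21.1% of genes tested. For Cnn3 it was 1.12 (SE 0.10, adjusted p = 1.28e-06, limma). For Cnn1 it was -3.34 (SE 1.03, adjusted p = 0.0297, limma), the E0771 change being the smaller, from controls of 72 reads in E0771 and 4 in B16F10. With 5 added before the logarithm this was -1.73 (adjusted p = 0.0736). The call was also lost on leaving out any of 6 libraries alone, with adjusted p-values of 0.055 to 0.0759 (limma): B16F10 control replicates 1 and 2, B16F10 MRTFA replicates 1 and 3, E0771 control replicate 2 and E0771 MRTFA replicate 3. With the numbers 1 or 2 left out of every group the adjusted p was 0.232 and 0.173, and without B16F10 control replicate 3 the difference was -4.09. Cnn2 (1.29, SE 0.49, adjusted p = 0.0737) and Tagln2 (0.80, SE 0.34, adjusted p = 0.104) did not pass with all libraries, and with libraries numbered 3 left out they were at 1.43 (adjusted p = 0.00208) and 0.83 (adjusted p = 0.0102). Without B16F10 MRTFA replicate 3 alone both passed too (adjusted p = 0.0271 and 0.0476, limma), and Cnn2 also without B16F10 control replicate 2 (0.048). Tagln differed by 0.60 (95% interval -1.49 to 2.69, adjusted p = 0.716). The same difference for Mkl1 was 3.12 (SE 0.28, adjusted p = 9.84e-07, limma), so the transgene's gene and the line cannot be told apart as sources. For Srf it was 1.76 (SE 0.39, adjusted p = 0.00409, limma). With MRTFA, Srf rose by 2.18 in E0771 (SE 0.30, adjusted p = 0.000273, limma). In B16F10 it was 0.42 higher (SE 0.17, adjusted p = 0.457, limma). The part of Srf was not tested. For the MRTFB effect 0 of 5 members differed between lines (background 0.114%), 0 at an unadjusted p under 0.05 (background 5.46%), and 0 with edgeR and with DESeq2 (backgrounds 0.108% and 0.287%). The intervals were wide for Cnn1 (-2.48 to 1.88) and Tagln (-2.56 to 1.62) and narrow for Cnn3 (-0.14 to 0.30).

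Genes that work with the members were read from 3 lists, each described by its counts and median. Of 17 tested smooth muscle contractile partners, 10 rose and 0 fell with MRTFA in B16F10 (median log2 difference 3.08, against -0.01 over all genes tested) and 17 rose in E0771 (3.53, against -0.02). Of all genes tested, 1.34% rose in B16F10 and 20.3% in E0771. In B16F10 they included Myh11, the smooth muscle myosin heavy chain, from 1.93 to 2136 scaled reads (9.51), Actg2, the enteric smooth muscle actin, from 30.0 to 25249 (9.97), Mrvi1 from 2.56 to 341 (6.67) and Mylk, the myosin light chain kinase, from 981 to 9024 (3.23). Mrvi1 and Synpo2, both among the 10, met the filter in B16F10 only through their MRTFA libraries, as Cnn1 did. Their means there were 2.56 and 2.88 in control and 5.64 and 4.29 with MRTFB. In E0771, Actg2 rose by 8.58, Mylk by 8.23, Myl9, a regulatory light chain, by 6.11 and Acta2, the vascular smooth muscle actin, by 5.23, from 19751 to 735273 scaled reads. With MRTFB, 0 of 17 passed in B16F10 by limma (median 0.53), 2 by DESeq2 and 8 with the replicate block, and 5 rose in E0771 (0.91), among them Lmod1 by 2.51, Actg2 by 1.91, Acta2 by 1.83 and Myl9 by 1.61. Lmod1, a leiomodin, nucleates actin filaments. Of all genes tested with MRTFB in B16F10, 0.126% passed by limma, 1.33% by DESeq2 and 4.46% with the replicate block. In E0771 0.144% passed by limma. The E0771 MRTFB count of partners was 1 in a fit of all 18 libraries and 0 with the numbers 2 left out. The B16F10 MRTFA count was 0 with the numbers 1 or 2 left out.

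Of 50 tested other genes with a calponin-homology domain (Smtn is also among the partners), 2 rose with MRTFA in B16F10 (median 0.10): Lcp1, the leukocyte plastin, by 3.17 (73.9 to 563 scaled reads) and Sptb, a spectrin, by 1.66. In E0771, 31 of 45 rose and 1 fell (median 0.97), among them Dmd, dystrophin, from 0.983 to 604 scaled reads, Mical2, an actin-oxidising enzyme, by 2.15, and Actn1, an actin crosslinker, by 1.98. Of 20 non-muscle actin turnover genes, 1 fell with MRTFA in B16F10, the actin-sequestering Tmsb4x, which fell by 2.17 on the log2 scale (662 to 155 scaled reads), and 11 rose in E0771 (median 0.69). There Tmsb4x rose by 2.53 (2655 to 15046), Wdr1, a cofilin partner, by 1.85, Arpc5, an Arp2/3 complex subunit, by 1.6, and Coro1c, a coronin, by 1.47. With MRTFB, of these 2 lists 0 passed in B16F10 by limma, and in E0771 Tmsb4x alone rose (0.98, adjusted p = 0.0306). In B16F10 the difference of Tmsb4x with MRTFB was -2.10 (SE 0.45, adjusted p = 0.165, limma), from 662 to 182 scaled reads. This is close to its difference with MRTFA from the same controls. Over all genes tested, 1.34% rose and 0.207% fell with MRTFA in B16F10, and 20.3% rose in E0771, by limma. With MRTFB 0.126% passed in B16F10 and 0.144% in E0771. With the replicate block the B16F10 MRTFA counts were 10 domain genes and 6 turnover genes, against 6.33% of all genes tested. Those with MRTFB were 4 and 2, against 4.46%.

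**Figure D5:**
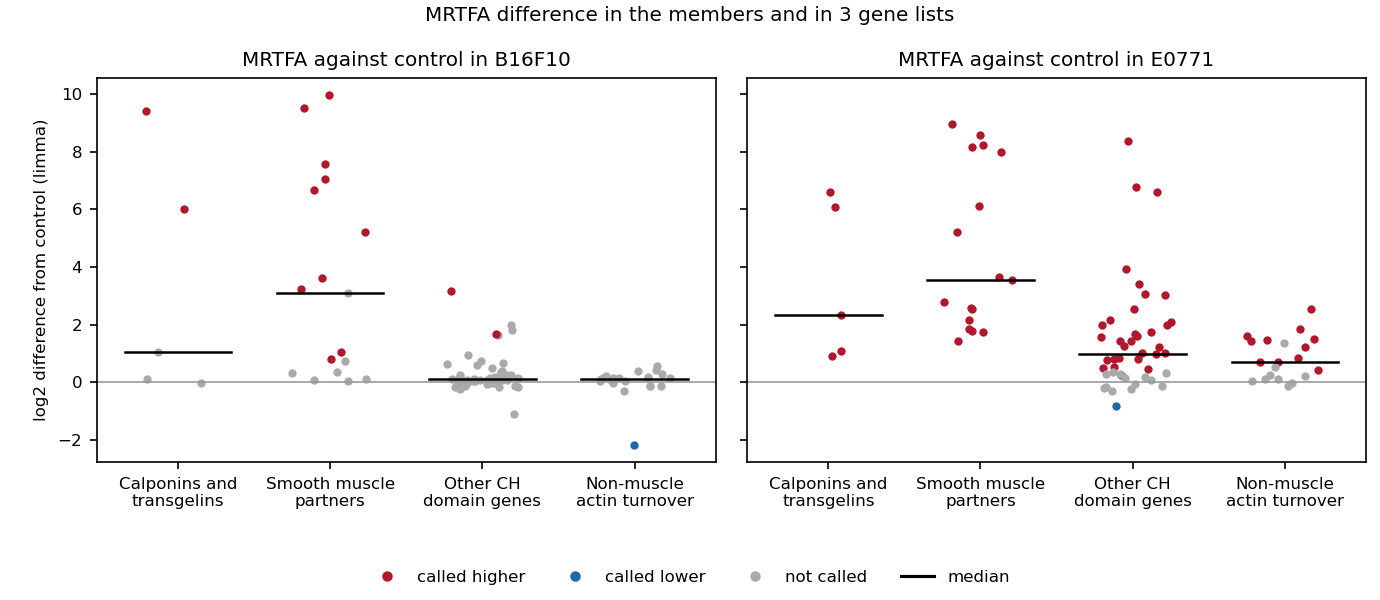
Difference with MRTFA from control on the log2 scale (limma) for each gene of the family and of 3 lists, in B16F10 and in E0771, coloured by whether the adjusted p was under 0.05, with a bar at the list's median. In B16F10 the called genes are mostly among the smooth muscle partners, with a median of 3.08, and in E0771 all 4 sets have medians above 0.

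The genes whose profile over the 18 libraries lay nearest to each member were ranked by the root mean square difference of centred log2 levels, among 10766 genes, as a description. Nearest to Tagln were Acta2 (1.26), Ankrd1 (1.31) and Cbr2 (1.32), against a median of 2.95 over genes. For Cnn1 they were Pilra (1.26), Mrvi1 (1.31) and Dnase1l3 (1.33), against 3.76. These 3 were low in both controls (0 to 8.45 scaled reads on average) and high with MRTFA (128 to 2715). This follows from their choice by likeness to Cnn1 and is no separate result. For Cnn2 they were Rnd3 (0.27), Lpp (0.29) and Vcl, the adhesion protein vinculin (0.32), against 1.15. For Cnn3 they were Fermt2, an integrin activator (0.12), Camk2g and Impa1 (both 0.13), against 0.54, and for Tagln2 Fosl2, an AP-1 factor (0.24), Diap2 and Shb (both 0.29), against 1.44. The points share libraries and depth.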

How the data were processed

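The submitters' processing notes name cutadapt 1.6, STAR 2.5.0a, HTSeq 0.5.3, DESeq and the build mm10. Each deposited value is a signal, the reads of a gene over a DESeq size factor; whole reads were recovered from them, within 0.001 read, for 100% of values. The 5 members and the 3 gene lists were chosen with earlier results of these data known. Tests used limma-trend (limma 3.58.1) on log2(scaled value + 1), for genes that reached 10 in 3 or more of the libraries fitted, so fold changes of low genes are understated. A gene can meet this filter through a single group in which it is high. Each line's 9 libraries were fitted together, and all 18 for differences between lines. Calls are at a Benjamini-Hochberg adjusted p under 0.05 over all genes tested, 2-sided. edgeR 4.0.16 (quasi-likelihood) and DESeq2 1.42.0 on the recovered reads, other scalings, filters and added constants, and leaving out libraries were alternatives; leaving a replicate number out of every group was chosen after seeing the data. The scripts were tested on simulated data. Levels per kb used the union of GENCODE M21 exons.

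Equal replicate numbers were read as paired where deviations from group means correlated above 0.1, across genes, for every number. This held for both comparisons in B16F10 with control (0.353 to 0.567 and 0.382 to 0.486), MRTFB against control in E0771 (0.459 to 0.553) and MRTFB against MRTFA (0.403 to 0.634 in B16F10, 0.134 to 0.474 in E0771), and not for MRTFA against control in E0771 (0.0842 to 0.525) or between lines. Named genes are the members, Mkl1, Mkl2 and Srf, genes within 5 kb of a member, up to 4 called genes of each list by adjusted p (1 of them is not reported here), and the 3 nearest profiles among genes with a mean of at least 50. A count of 0 allows up to 3 reads, or 0.0808 to 0.109 CPM at these depths, and intervals cover counting error only. No 2 libraries of a group agreed within sampling noise.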

Additional observations from a re-analysis of the deposited data

Results flagged for a closer look

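The difference between the 2 lines in the MRTFA effect passed its own test for 2 members. For Cnn3 the E0771 effect minus the B16F10 effect was 1.12 on the log2 scale (SE 0.10, adjusted p = 1.28e-06, limma); all 3 E0771 MRTFA libraries were above their controls, and in B16F10 the groups overlapped. The range over 24 alternatives was 1.05 to 1.18, with adjusted p-values up to 0.00247. For Cnn1 it was -3.34 (SE 1.03, adjusted p = 0.0297, limma), with all 3 MRTFA libraries above all controls in both lines. Its range was -4.09 to -1.73, and the adjusted p was above 0.05 under 9 of 24 alternatives, up to 0.232; 6 of these leave out 1 library. It rests on 4 reads in the B16F10 controls.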

How the results depend on the processing

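Over 45 results for members, 897 alternatives were computed: 823 kept direction and side of the threshold, 27 lost the call, 25 gained one and 22 reversed the sign, all of results not called. The 5 calls for MRTFA in E0771 held under every alternative run. Counts of members called moved as follows. For MRTFA in B16F10 (2) the count was 3 with the replicate block (Cnn2 gained), 0 with the numbers 1 or 2 left out of every group, 2 with the numbers 3 left out (Tagln and Cnn2, as Cnn1 was not tested there) and 1 to 2 with 1 library left out. For MRTFB in B16F10 (0) it was 1 with DESeq2, 2 with the replicate block, 1 in a fit of all 18 libraries, 1 with the numbers 3 left out, and 0 to 1 with 1 library left out. For MRTFB in E0771 (1) it was 3 with DESeq2 and 0 in a fit of all 18 libraries or with the numbers 2 left out. For MRTFB against MRTFA in B16F10 (1) it was 3 with the replicate block, 0, 0 and 2 with the numbers 1, 2 or 3 left out, and 0 to 2 with 1 library left out. For the line difference with MRTFA (2) it was 1 with 5 added before the logarithm, 4 with the replicate block (whose numbers pair nothing there), 1, 1 and 4 with the numbers 1, 2 or 3 left out, and 1 to 3 with 1 library left out. In the paired comparisons the replicate block changed no member call other than those of Cnn2 with MRTFA, Cnn1 and Tagln with MRTFB, and Cnn2 and Tagln between MRTFB and MRTFA, all in B16F10. Between controls, it brought Cnn2 to an adjusted p of 0.00891.

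Signs turned with 1 library left out for Cnn3 (-0.070 to 0.019) and Tagln2 (-0.10 to 0.30) with MRTFA in B16F10, Cnn2 (-0.25 to 0.51) and Tagln2 (-0.00018 to 0.57) with MRTFB there, and Tagln2 between MRTFB and MRTFA (-0.10 to 0.47). In the line differences they turned for Tagln with MRTFA (-0.20 to 1.09) and, with MRTFB, for Cnn1 (-1.12 to 0.72), Cnn2 (-0.14 to 0.62), Tagln (-1.27 to 0.58) and Tagln2 (-0.10 to 0.47). Cnn1 there was also 0.50 with 5 added and 0.081 with the numbers 3 left out, and Tagln2 -0.038 with the numbers 2 left out. The cause was not tested. The share of all genes called rose from 1.55 to 6.33% for MRTFA and from 0.126 to 4.46% for MRTFB in B16F10 with the replicate block, and to 2.64 and 1.33% with DESeq2. Depth limits Cnn1 in B16F10 controls and MRTFB libraries, at 4 and 30 reads a group.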
